A study of Saccharomyces cerevisiae with 25 samples.

Results

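Transcript levels of budding yeast starved of phosphate were compared between 6 libraries of one time course: those taken 225, 240 and 255 min after the move to medium without phosphate, and those taken at 270, 285 and 300 min. The windows are runs of time points and were chosen with earlier results of these data known. The genes compared were the 4278 with a value in all 6 libraries, of 5383 genes with a value anywhere in the course. The 6 libraries belong to a series of 25, with 1 library per time point every 15 min up to 360 min and 1 from high phosphate at 0 min. All 25 came from the strain background BY4741, a laboratory strain of mating type a, with the genotype pho84pr-YFP, pho90_OX. This is a fluorescent reporter under the PHO84 promoter together with overexpression of PHO90, a low-affinity phosphate transporter gene. Neither the promoter that drives PHO90 nor a control strain is named in the labels. By these labels the windows thus differ only in time, and neither holds a replicate culture. Their libraries also differed in read depth, given below. A p-value below measures only the spread between these libraries, in which single time points stand in for replicates and library noise and drift inside a window are mixed.

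Budding yeast that lacks phosphate turns on the PHO genes through the transcription factor Pho4. When growth slows, yeast often also lowers transcripts for ribosomal proteins and for the nucleolar factors that assemble ribosomes. It often raises stress genes as well, through the factors Msn2 and Msn4. Msn2 and Msn4 bind the stress response element (STRE), and the PAC and RRPE motifs lie upstream of many ribosome assembly genes.

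The transition at issue is seen in the order of the libraries. Ribosomal protein transcripts took 15.4% of the reads at 180 min, 9.17% at 210 min and 9.28% at 225 min. They then took 10.6% at 240 min and 12.6% at 255 min, before 10.2%, 8.0% and 6.80% at 270, 285 and 300 min. The lowest share of the 6 libraries was thus the last one, but the 225 min library lay under the 270 min library, so the windows overlapped. The mean share was 10.8% ± 1.66 (SD, n = 3) in the earlier and 8.34% ± 1.75 (SD, n = 3) in the later window, and an exact two-sided permutation test gave p = 0.2, where the smallest p of 3 against 3 libraries is 0.1. These are shares of reads from whole cultures, in which fewer cells of a type and less RNA per cell cannot be told apart. From one library to the next, the SD over genes of the log2 change was 0.29 between 210 and 225 min, 0.41 between 225 and 240 min, 0.34 between 240 and 255 min, and 0.40 between 255 and 270 min. The step into the 240 min library was therefore as wide as the step across the boundary at 270 min.

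**Figure D1:**
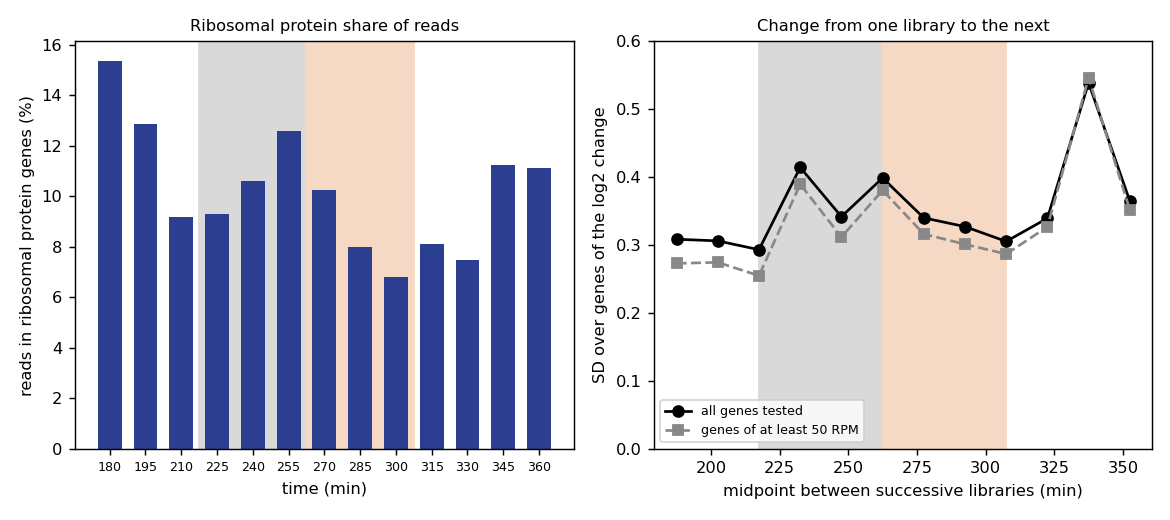
Left, percent of reads in cytosolic ribosomal protein genes in each library from 180 to 360 min. Right, SD over genes of the log2 change between successive libraries, for all genes tested and for genes of at least 50 RPM. Grey marks 225 to 255 min and orange marks 270 to 300 min. The share was 12.6% at 255 min and 6.80% at 300 min, and the widest step from 180 min on was that from 330 to 345 min, with an SD of 0.54.

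Upstream sequences are shown for 3 genes of each of 2 groups described below, to show the motifs counted further on. The first set holds the 3 genes with the largest increases among those whose windows did not overlap: ALD3, a cytoplasmic aldehyde dehydrogenase, CTT1, the cytosolic catalase, and HSP42, a small heat shock chaperone. Each line gives bases 300 to 61 upstream of the start codon on the coding strand, read from the R64 genome (RefSeq), with capitals for the STRE letters AGGGG or their complement. The positions are chrXIII:600933-601172 on the minus strand, chrVII:654334-654573 on the plus strand and chrIV:806321-806560 on the plus strand, and no annotated gene overlaps them.
ALD3: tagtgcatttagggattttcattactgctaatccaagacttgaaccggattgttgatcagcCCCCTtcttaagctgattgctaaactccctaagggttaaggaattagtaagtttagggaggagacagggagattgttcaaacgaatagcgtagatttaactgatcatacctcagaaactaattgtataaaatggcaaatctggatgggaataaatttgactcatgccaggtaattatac
CTT1: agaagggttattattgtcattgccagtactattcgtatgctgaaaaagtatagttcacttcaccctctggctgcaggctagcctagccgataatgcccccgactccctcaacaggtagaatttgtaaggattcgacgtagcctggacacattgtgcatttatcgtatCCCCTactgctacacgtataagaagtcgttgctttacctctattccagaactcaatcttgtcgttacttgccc
HSP42: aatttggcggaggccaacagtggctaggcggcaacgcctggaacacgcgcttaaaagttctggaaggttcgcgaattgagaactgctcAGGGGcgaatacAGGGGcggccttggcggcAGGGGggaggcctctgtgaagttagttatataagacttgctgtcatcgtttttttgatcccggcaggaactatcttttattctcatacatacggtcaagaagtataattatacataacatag
ALD3 and CTT1 held 1 match each in the 300 bases before the start codon, and HSP42 held 3.

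The second set was taken from the ribosome assembly list and holds its 3 members with the largest differences, all in the other direction; they are not the largest decreases of all genes, and the windows of RCL1 and UTP23 overlapped. They are RCL1, needed for cleavage of the ribosomal RNA precursor, ENP1, a factor of small subunit assembly, and UTP23, of the small subunit processome. Capitals mark PAC (GATGAG) and RRPE (AAAATTTT) on either strand. The positions are chrXV:307638-307877 on the plus strand, chrII:714516-714755 on the minus strand and chrXV:333292-333531 on the plus strand.
RCL1: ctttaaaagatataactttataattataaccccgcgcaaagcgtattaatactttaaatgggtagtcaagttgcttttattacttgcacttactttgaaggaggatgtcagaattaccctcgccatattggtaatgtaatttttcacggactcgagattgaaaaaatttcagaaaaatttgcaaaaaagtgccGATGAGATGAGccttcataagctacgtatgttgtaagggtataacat
ENP1: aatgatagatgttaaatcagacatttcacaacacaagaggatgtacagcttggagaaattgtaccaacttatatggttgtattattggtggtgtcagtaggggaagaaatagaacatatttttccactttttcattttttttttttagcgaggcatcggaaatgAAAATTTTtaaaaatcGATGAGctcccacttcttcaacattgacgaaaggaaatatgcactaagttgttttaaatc
UTP23: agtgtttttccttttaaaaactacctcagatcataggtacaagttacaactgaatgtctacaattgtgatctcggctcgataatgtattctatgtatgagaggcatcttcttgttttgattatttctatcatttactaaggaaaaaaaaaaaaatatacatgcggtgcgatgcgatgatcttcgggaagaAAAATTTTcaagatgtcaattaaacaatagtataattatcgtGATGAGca
RCL1 held 2 overlapping PAC matches and no RRPE match, while ENP1 and UTP23 held 1 of each. ENP1 also held 1 STRE match, which is left in lower case. No RRPE match in the window of RCL1 says only that these letters are absent from it.

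Across the windows no gene passed the test. With limma on the deposited log2 values, and a gene called when its Benjamini-Hochberg adjusted p was under 0.05 and its difference at least 1.5-fold, 0 genes were called higher (0.0%) and 0 lower (0.0%) of 4278, and the smallest adjusted p was 0.348. At an unadjusted p under 0.05 there were 432 genes, or 10.1%, of which 246 lay higher and 186 lower in the later window. The median difference over all genes tested was 0.0063 (log2, later minus earlier), 89 genes lay at least 1.5-fold higher and 42 at least 1.5-fold lower. In 352 genes (8.23%) every later library lay above every earlier one, and in 220 (5.14%) every later library lay below. With a difference of at least 1.5-fold as well, these counts were 49 (1.15%) and 17 (0.397%).

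A single library decided the count. Leaving out each of the 6 libraries in turn was planned, and without the 225 min library the same test called 63 genes higher (1.47%) and 52 lower (1.22%). Without the 270 min library it called 3 higher and 0 lower: HSP26, MSC1 and PAI3, with adjusted p by limma of 0.0117, 0.0117 and 0.0274. Without any of the other 4 it called 0 in either direction. The 2 libraries on each side of the boundary (240 and 255 against 270 and 285 min) gave 62 genes higher and 87 lower, of which 52 and 44 were also called without the 225 min library; these settings share most of their libraries. Below, "without 225 min" names the fit of 240 and 255 min against the 3 later libraries. Of the 6 fits that leave out 1 library it is given because it made the most calls, and it drops a library whose medians for stress, ribosome assembly and ribosomal protein genes stood nearer the later window than those of 240 and 255 min. Its calls are therefore a description of those 5 libraries and no support for a change between the windows.

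Stress genes were among the groups that lay higher. In a list of genes induced by Msn2 and Msn4 or by stress in general, 39 of 40 tested members lay above 0 and the median difference was 0.52, against 0.0063 over all genes. In 11 of the 40 (27.5%, against 8.23% of all genes) every later library was above every earlier one. By the limma test of 3 against 3 libraries 0 members were called and 18 had an unadjusted p under 0.05, against 10.1% of all genes. Without 225 min 16 of the 40 were called higher, against 1.47% of all genes, with a median of 0.74.

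CTT1 (YGR088W, chromosome VII, 654634 to 656322) had log2 RPM values of 7.46, 6.23 and 6.51 at 225, 240 and 255 min, and 7.77, 8.27 and 8.12 at 270, 285 and 300 min. The windows did not overlap, but the 225 min value lay only 0.31 under the lowest later one. The difference was 1.32 (SE 0.27, unadjusted p = 0.000481, adjusted p = 0.348 by limma), and without 225 min it was 1.68 (adjusted p = 8.99e-05). ALD3 (YMR169C, chromosome XIII, 599352 to 600872) read 7.35, 6.30 and 6.34, and then 7.50, 8.33 and 8.28. Its difference was 1.38 (SE 0.29, adjusted p = 0.348 by limma), and 1.72 without 225 min (adjusted p = 0.000237). Its neighbour ALD2, a closely similar copy that could share reads with it, differed by 0.31 with overlapping windows, so the split between the pair is uncertain. DDR2, a gene of the general stress response, read 9.15, 8.16 and 8.41, and then 9.30, 9.84 and 10.02, a difference of 1.15. RTN2, which encodes a reticulon protein of the endoplasmic reticulum, read 6.94, 5.39 and 5.95, and then 6.99, 7.43 and 6.96, a difference of 1.04. In all 4 genes the 225 min library was the highest of its window and the 240 min library the lowest. TKL2, a transketolase gene, had the largest difference of all genes tested, 1.39, with overlapping windows and an adjusted p of 0.415 by limma.

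Other genes of the 12 largest increases without overlap came from several functions. HSP42 (YDR171W, chromosome IV, 806621 to 807748) read 7.58, 6.69 and 5.99, and then 7.89, 8.28 and 7.91, a difference of 1.27 (SE 0.31, adjusted p = 0.355 by limma). The difference was 1.68 without 225 min (adjusted p = 0.000237). SPI1, a cell wall protein gene, read 7.10, 6.35 and 6.10, and then 7.22, 7.58 and 7.54. NCE103, which encodes carbonic anhydrase, read 10.25, 9.87 and 9.59, and then 10.53, 10.89 and 10.71, a difference of 0.81. MSC1, a gene with no firmly known role, read 9.92, 9.42 and 9.57, and then 10.05, 10.71 and 10.84. The other members of the 12 were YTP1, GIP2, a regulatory subunit of the phosphatase Glc7, MHP1, a microtubule-associated protein, and YFL042C, with differences of 0.82 to 0.93. YFL042C was the most even of them, at 5.65, 5.56 and 5.46 and then 6.44, 6.34 and 6.34. Without 225 min, SPI1, NCE103, MSC1, YTP1 and YFL042C were called, while GIP2 and MHP1 were not called (adjusted p of 0.0575 for both, limma).

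**Figure D2:**
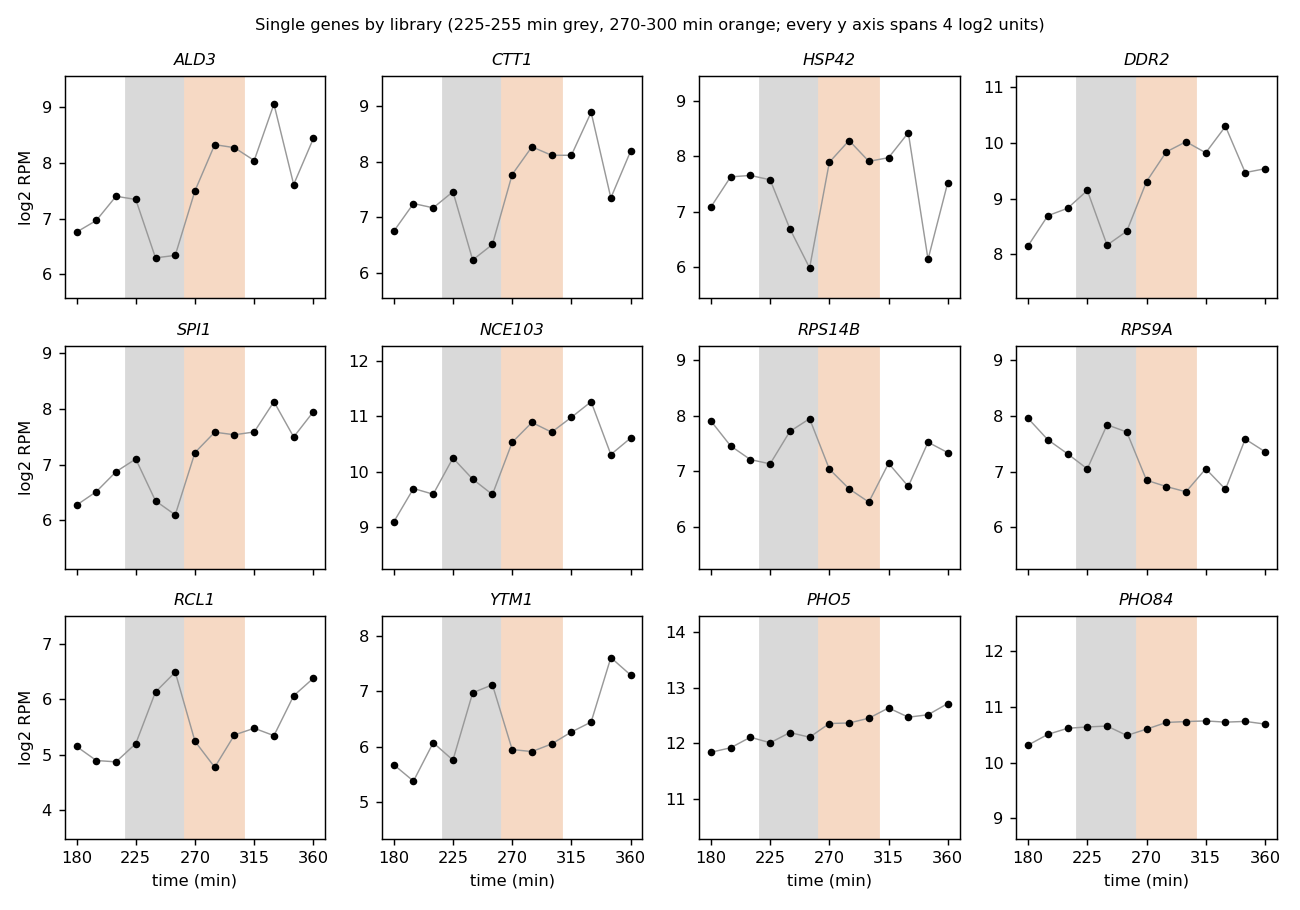
Log2 RPM of 12 genes in each library from 180 to 360 min, 1 point per library, with 225 to 255 min in grey and 270 to 300 min in orange; every vertical axis spans the same number of log2 units. CTT1 stood at 7.46 at 225 min, 6.23 at 240 min and 7.77 at 270 min, RCL1 and YTM1 show the opposite course, and PHO84 stayed between 10.49 and 10.74 over the 6 libraries.

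Genes of reserve carbohydrates also lay higher. In the list of trehalose and glycogen metabolism all 16 tested members lay above 0, with a median of 0.60. Of the 16, 3 (18.8%, against 8.23% of all genes) had windows apart. Without 225 min 9 were called higher, against 1.47% of all genes, with a median of 0.89. TPS2, trehalose-phosphate phosphatase, read 7.60, 6.57 and 6.06, and then 7.63, 7.82 and 6.98. TSL1, a further subunit of the trehalose synthase complex, read 7.76, 6.87 and 6.23, and then 7.68, 8.19 and 7.20. In both, the 225 min library stood with the later ones and the windows overlapped. TPS2 differed by 1.16 and TSL1 by 1.14 without 225 min (adjusted p = 0.0106 and 0.0211 by limma), against 0.73 and 0.74 with it. The synthase subunit TPS1, the glycogen branching enzyme GLC3 and the debranching enzyme GDB1 differed in that fit by 1.03, 0.96 and 1.01. Glycolysis as a list had a median of 0.07 over 22 tested members; its minor pyruvate kinase gene PYK2 read 7.49, 7.01 and 7.01, and then 7.80, 7.91 and 7.69. PYK2, the hexokinase gene HXK1 and the glucokinase gene GLK1 were the 3 of 22 members called higher without 225 min, against 1.47% of all genes.

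Chaperone genes of the heat shock factor Hsf1 had a median of 0.18 over 25 tested members, 5 (20%, against 8.23% of all genes) with windows apart. Without 225 min 5 were called higher, against 1.47% of all genes. The mitochondrial chaperone gene HSP78 read 7.70, 7.10 and 7.01, and then 7.62, 8.06 and 8.17. The Hsp90 gene HSP82 read 9.48, 9.13 and 8.79, and then 9.53, 9.95 and 9.68. HSP82 was apart and HSP78 was not. Desiccation-related genes had a median of 0.60 over 14 tested members, all above 0, but the high values came from 285 and 300 min. SIP18, a hydrophilin gene, read 8.71, 8.09 and 8.44, and then 7.99, 9.39 and 10.51, for a difference of 0.88 with an SE of 0.64. GRE1, a related hydrophilin gene, read 7.14, 6.68 and 5.88, and then 6.38, 7.53 and 8.42. In both the 270 min library lay inside the range of the earlier window, and neither was called without 225 min.

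Autophagy and vacuolar genes lay moderately higher. Of 23 tested autophagy genes 7 (30.4%) had windows apart and higher, with a median of 0.34, and of 12 vacuolar proteases and inhibitors 5 (41.7%), with a median of 0.28; the share over all genes was 8.23%. ATG11, a scaffold of selective autophagy, read 4.86, 4.82 and 5.10, and then 5.42, 5.63 and 5.80. ATG8, the ubiquitin-like protein of the autophagosome, read 7.20, 5.92 and 6.73, and then 7.14, 7.04 and 7.29; it was the 1 autophagy gene called without 225 min, at 0.83 (adjusted p = 0.0408 by limma). PAI3, the inhibitor of the vacuolar protease Pep4, read 9.01, 8.40 and 8.53, and then 8.54, 9.69 and 10.11. Of 33 respiratory chain and ATP synthase genes 9 (27.3%, against 8.23% of all genes) were apart and higher and 1 lower, with a median of 0.14 and no call without 225 min. COR1, a core subunit of complex III, was nearly flat inside each window, at 7.56, 7.56 and 7.54 and then 8.09, 8.06 and 8.10, a difference of 0.53 (adjusted p = 0.348 by limma). Of 18 genes under nitrogen catabolite repression, all lay above 0 (median 0.22), and the proline permease gene PUT4 was called without 225 min, at 1.01. Over all genes 1.47% were called higher in that fit.

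Cytosolic ribosomal protein genes lay lower almost throughout. Of 136 tested, 135 lay below 0, the median difference was -0.42, and 20 (14.7%, against 5.14% of all genes) had every later library below every earlier one. By the limma test of 3 against 3 libraries 0 were called and 76 had an unadjusted p under 0.05, against 10.1% of all genes. Without 225 min the median was -0.53 and 7 of 136 were called lower, against 1.22% of all genes. The median was -0.41 over 81 large subunit and -0.42 over 55 small subunit genes.

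RPS14B (YJL191W, chromosome X, 73787 to 74611) had the largest difference of them. It read 7.14, 7.72 and 7.95, and then 7.04, 6.69 and 6.45, a difference of -0.87 (SE 0.22, adjusted p = 0.355 by limma). The difference was -1.11 without 225 min (adjusted p = 0.00435). RPS9A (YPL081W, chromosome XVI, 404950 to 406044) read 7.05, 7.84 and 7.71, and then 6.84, 6.73 and 6.64, a difference of -0.80 (adjusted p = 0.355 by limma). Their near-identical copies RPS14A and RPS9B differed by -0.23 and -0.30, with overlapping windows; since reads can be shared within such pairs, how far each copy moved is uncertain. RPL33B, RPL35A and RPL9A completed the 5 largest without overlap, with -0.71, -0.59 and -0.57. The libraries differed inside the windows as well: relative to each gene's mean over 225 to 255 min, the median over 136 genes was -0.22, -0.01 and 0.23 in the earlier libraries and -0.08, -0.44 and -0.70 in the later ones.

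Ribosome assembly genes lay on the same side. Of 121 tested, 110 lay below 0 with a median of -0.33, while 2 (1.65%, under the 5.14% of all genes) had windows apart. Without 225 min the median was -0.62 and 26 of 121 were called lower, against 1.22% of all genes. RCL1 (YOL010W, chromosome XV, 307938 to 309041) read 5.20, 6.13 and 6.49, and then 5.24, 4.78 and 5.36. Its 225 min value lay within the later range, and its difference was -1.18 without that library (adjusted p = 0.0139 by limma), against -0.81 with it. YTM1, of large subunit assembly, read 5.76, 6.97 and 7.12, and then 5.95, 5.91 and 6.05. UTP23 read 6.31, 7.40 and 7.89, and then 6.89, 6.13 and 6.64. ENP1, the member with windows apart among the 4 largest differences, read 5.12, 5.71 and 5.71, and then 5.09, 4.36 and 4.66, its 225 and 270 min values 0.03 apart. Its 285 min value was the lowest level listed in that library, 15 reads, and the 285 min value of RCL1 was near it. The 21 subunits of RNA polymerases I and III, which make the ribosomal and transfer RNAs, all lay below 0 with a median of -0.30, or -0.57 without 225 min.

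The list courses show where the 225 min library stood. Relative to the mean of 225 to 255 min, the median of 115 ribosome assembly genes was -0.65 at 210 min and -0.58 at 225 min, then 0.27 and 0.33 at 240 and 255 min, and -0.21, -0.60 and -0.15 in the later window. The median of 37 stress genes was 0.29 at 210 min and 0.39 at 225 min, then -0.22 and -0.16, and then 0.16, 0.80 and 0.54. That of 15 trehalose and glycogen genes was 0.46 at 225 min, then -0.17 and -0.29, and then 0.50, 0.68 and 0.35. In these 3 groups the 240 and 255 min libraries stood apart from both their neighbours, and 225 min lay with 210 min. The data thus go partly against a single step at 270 min. In these 3 groups the later window differed mainly from the 240 and 255 min libraries, although the differences with all 6 libraries include 225 min. The 255 min library was the shallowest of the 6, with 613054 reads in listed genes, and the others held 729424 to 1145729. The 240 min library held 955943. The part of depth in these differences was not tested.

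**Figure D3:**
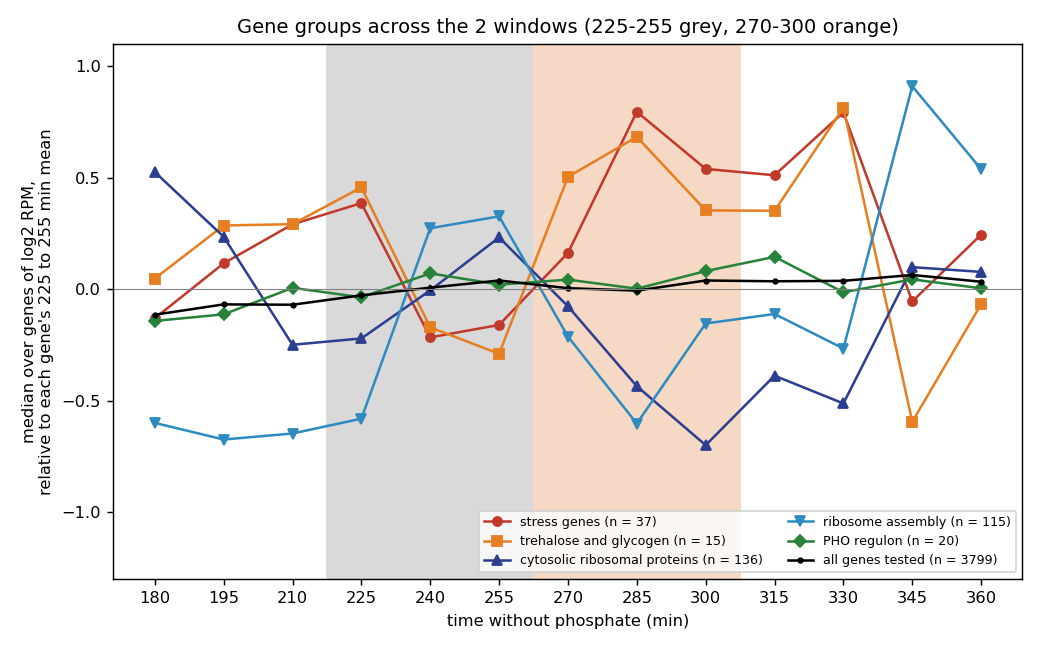
Median over the members of 5 gene lists and over all tested genes of log2 RPM relative to each gene's mean at 225 to 255 min, for genes with a value in all 13 libraries from 180 to 360 min. Ribosome assembly genes stood at 0.27 and 0.33 at 240 and 255 min and at -0.60 at 285 min, stress genes stood at 0.80 at 285 min, and PHO genes stayed within -0.04 and 0.08 over the 6 libraries.

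Outside the ribosomal proteins, the 12 largest decreases without overlap were led by a gene of ribosomal RNA transcription. UAF30, a subunit of the upstream activation factor of RNA polymerase I, had the lowest difference of all genes tested. It read 5.79, 5.92 and 6.20, and then 4.80, 5.16 and 5.30, a difference of -0.89 (SE 0.21, adjusted p = 0.348 by limma). CDC28, the cyclin-dependent kinase of the cell cycle, read 5.65, 5.59 and 5.99, and then 5.24, 4.78 and 4.71. COX10, needed to make the haem of cytochrome oxidase, read 5.73, 5.19 and 5.03, and then 4.34, 4.54 and 4.66. ECM1, a factor of large subunit export, read 5.73, 5.95 and 6.41, and then 5.58, 4.63 and 5.69. The 270 min value of COX10 and the 285 min values of ECM1 and ENP1 were at or near the minimum of 15 reads that a library listed. The remaining 7 beside ENP1 were YGR050C, KCC4, MSH1, YNL011C, SEY1, SRP40 and YIF1, with differences of -0.69 to -0.60. Of the 12, UAF30, ENP1 and the nucleolar gene SRP40 were called lower without 225 min.

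The PHO regulon was nearly level. Its 20 tested members had a median difference of 0.02, with 11 above and 9 below 0 and a range of -0.13 to 0.32. None was called with 225 min, as over all genes. None was called without it, against 1.47% higher and 1.22% lower of all genes, a count near those shares. By limma 1 of the 20 had an unadjusted p under 0.05, against 10.1% of all genes. PHO5, the repressible acid phosphatase, read 12.01, 12.19 and 12.11, and then 12.35, 12.36 and 12.45, a difference of 0.29 (SE 0.12, adjusted p = 0.453 by limma). PHO84, the high-affinity transporter, read 10.64, 10.66 and 10.49, and then 10.60, 10.72 and 10.74. The acid phosphatase genes PHO11 and PHO12, near-identical copies, differed by -0.12 and -0.01, and the polyphosphate polymerase genes VTC1 to VTC4 by -0.10 to 0.02. PHO86, needed for Pho84 to leave the endoplasmic reticulum, was the second member with windows apart, at 0.22. The share apart and higher was 10% of the list, near the 8.23% of all genes.

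The phosphate signalling genes had a median of 0.17 over 11 tested members, with none called, as over all genes. Of the 11, 3 (27.3%, against 8.23% of all genes) lay higher with windows apart. The 1 lower with windows apart made 9.09%, against 5.14% of all genes. PHO4, the transcription factor, read 5.0, 5.62 and 5.51, and then 5.83, 6.26 and 6.34. Its windows did not overlap, and the difference was 0.77 (SE 0.22, unadjusted p = 0.00396, adjusted p = 0.415 by limma). The overexpressed transporter gene PHO90 (YJL198W, chromosome X, 60844 to 63489) read 11.97, 11.85 and 11.90, and then 12.12, 12.28 and 12.31. Its difference of 0.33 (SE 0.12, adjusted p = 0.45 by limma) came with windows apart. PHO87, a related low-affinity transporter, was apart with a difference of 0.17, and PHO88, a protein of the endoplasmic reticulum, was apart with -0.24.

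**Figure D4:**
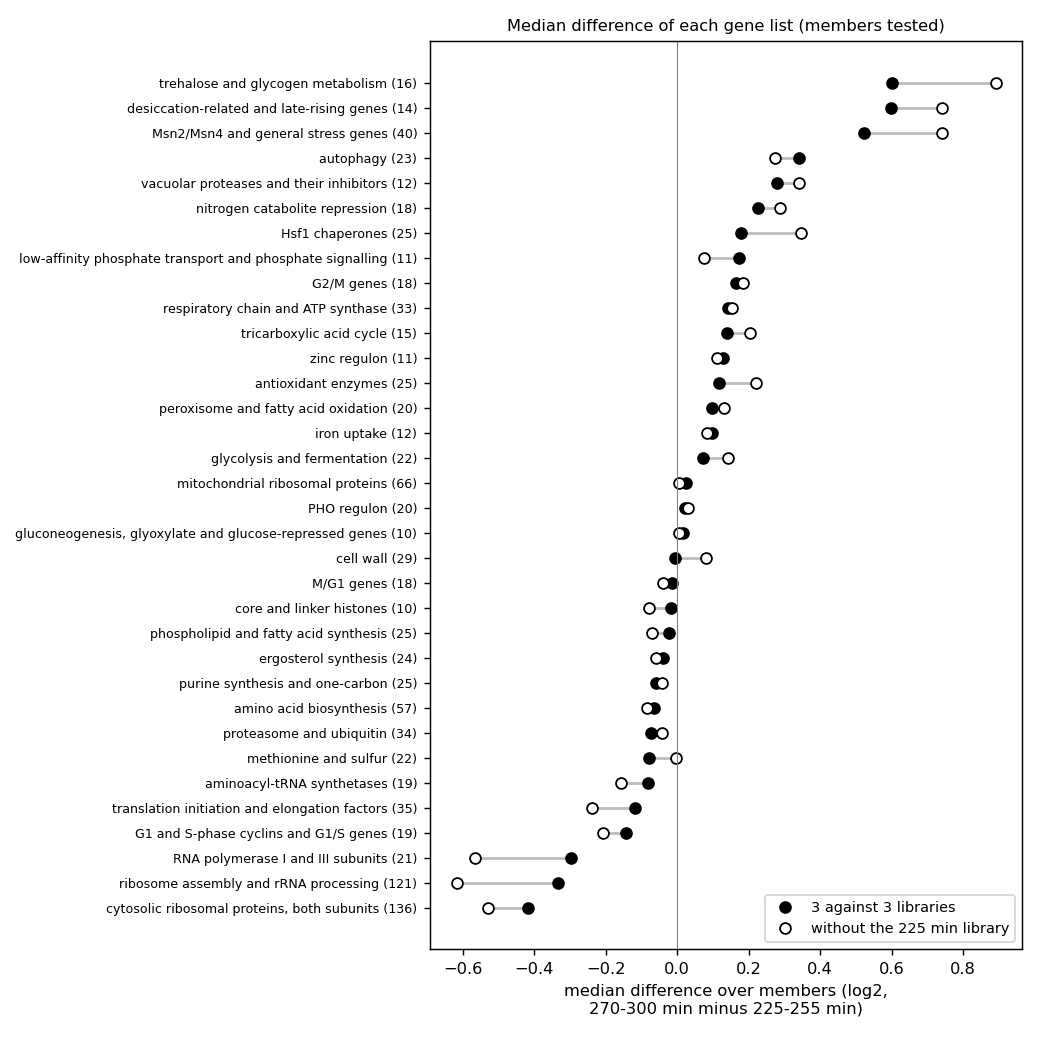
Median log2 difference, 270 to 300 min minus 225 to 255 min, over the tested members of each gene list with at least 10 of them (number in brackets); filled points take all 6 libraries and open points leave out 225 min. Ribosome assembly moved from -0.33 to -0.62 and trehalose and glycogen metabolism from 0.60 to 0.89, while the PHO regulon stayed at 0.02 and 0.03.

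Motifs were counted in the 300 bases before the start codon of 4200 tested genes, on both strands, without regard to any difference. STRE (AGGGG) was found in 22.9% of them and in 22.2% of all 6020 promoters. The median difference was -0.021 in the 3237 genes without it, 0.08 in 809 genes with 1 match and 0.22 in 154 genes with 2 or more. PAC (GATGAG) was found in 19.2% of tested genes and 19.1% of all promoters, with medians of 0.027, -0.078 and -0.19 for 3393, 654 and 153 genes with none, 1 and 2 or more. RRPE (AAAATTTT), in 11.4% of tested genes and 9.39% of all promoters, gave 0.024, -0.14 and -0.24. In the 236 genes with both PAC and RRPE the median was -0.23, and -0.47 without 225 min. The Pho4 site CACGTG, in 3.95% of tested genes and 3.55% of all promoters, gave 0.0037, 0.050 and 0.0027. These are descriptions of letters in a fixed window, and the members of the stress and assembly lists are among the genes counted.

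Among genes chosen by their difference the shares varied with the choice. STRE was in 28 of the 49 genes at least 1.5-fold higher with windows apart (57.1%), and in 51 of the 61 genes with an upstream sequence called higher without 225 min (83.6%). It was in 22.9% of tested genes. Of the 63 genes called higher in that fit 16 are on the stress list, and 78.6% of that list holds STRE. The Pho4 site was in 5 of the 49 (10.2%) and 3 of the 61 (4.92%), against 3.95% of tested genes. All these sets were picked by their differences, so the shares are descriptions only. Of the 17 genes at least 1.5-fold lower with windows apart, PAC was in 5 (29.4%) and RRPE in 5 (29.4%), against 19.2% and 11.4% of tested genes. Of the 52 genes called lower without 225 min, 26 of which are on the ribosome assembly list, PAC was in 42 (80.8%) and RRPE in 32 (61.5%).

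**Figure D5:**
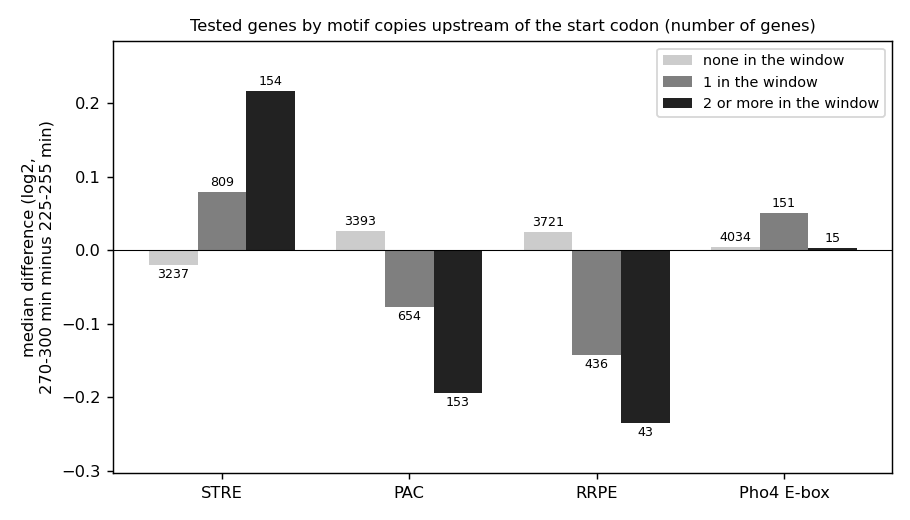
Median log2 difference, 270 to 300 min minus 225 to 255 min, of tested genes with none, 1, or 2 or more matches of each motif in the 300 bases before the start codon; numbers on the bars count genes. Genes with 2 or more STRE matches had a median of 0.22, and genes with 2 or more PAC matches had -0.19.

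The later window was also set against 180, 195 and 210 min, before the earlier window; both comparisons use the same later libraries. Here 59 of 4476 genes were called higher (1.32%) and 17 lower (0.38%), and the median of all genes lay 0.12 higher. Centring each library on its median turned the split to 13 higher and 27 lower, and scaling to the reads outside ribosomal protein genes gave 21 and 20. The counts turned on single libraries: they were 5 and 1 without 180 min, 5 and 1 without 195 min, 129 and 121 without 210 min, 126 and 112 without 270 min, and 2 and 1 without 300 min. Limma without trend and robust estimation called 0 in either direction.

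The carbonic anhydrase gene and genes of methionine synthesis had the smallest adjusted p-values in that comparison. NCE103 read 9.10, 9.70 and 9.60 at 180, 195 and 210 min and rose by 1.24 (SE 0.15, adjusted p = 0.00175 by limma), higher in 3 of 3 later libraries, and it remained called in each of the settings without 1 library that called 5 or fewer genes. MET6, methionine synthase, read 10.20, 10.21 and 10.18, and then 9.35, 9.39 and 9.14 in the later window, and fell by 0.90 (SE 0.12, adjusted p = 0.00175 by limma). It was the 1 gene lower in each of the same settings. In between, at 225, 240 and 255 min, MET6 read 9.88, 9.56 and 9.12, so it had reached its later level by 255 min. Of 24 tested methionine and sulfur genes 6 were called lower, against 0.38% of all genes. Among them were the adenosylmethionine synthetase genes SAM2, which fell by 1.01, and SAM1, by 0.60. Against 225 to 255 min the median over 22 tested methionine and sulfur genes was only -0.08. The largest called increase against 180 to 210 min was in STP4, a zinc finger protein gene, at 4.06, 4.24 and 3.99 and then 5.09, 5.31 and 5.78 (difference 1.30, adjusted p = 0.0105 by limma). Its values at 180 to 210 min were near the minimum of 15 reads that a library listed. At 225, 240 and 255 min STP4 read 4.28, 4.65 and 4.95, so part of its rise came before 270 min. RRT1, DDR2, PUT4 and VID24, the last a factor of vacuolar degradation of gluconeogenic enzymes, rose by 1.03 to 1.25. At 180 min RRT1, PUT4 and VID24 read 4.31, 4.52 and 4.52, also not far above that minimum. The other large decreases were AAD16, by 1.05, and IMD2, an enzyme of guanine nucleotide synthesis, by 0.93. Of 136 ribosomal protein genes 4 were called lower, RPS9A and RPS14B among them, against 0.38% of all genes. The median over the 136 was -0.59. Ribosome assembly genes lay on the other side, with a median of 0.34, against 0.12 over all genes, and 2 of 120 called higher, a share near the 1.32% of all genes, while their median against 225 to 255 min was -0.33. Stress genes had 5 of 38 called higher, against 1.32% of all genes, and a median of 0.39.

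Genes listed in all 3 libraries of one window and none of the other were few. Of the windows compared, MSR1, NDI1 and KAR9 were listed only in that of 270 to 300 min, and FIG1 and SPO16 only in that of 225 to 255 min. Each also had a value in some library outside both windows. Their levels inside the windows, 4.04 to 5.29 log2 RPM, were near the minimum of 15 reads that a library listed, so no fold is given. The mating type a markers MFA1, MFA2, STE2, BAR1, STE6 and AGA2 had a value in all 25 libraries, ASG7 in 19, MF(ALPHA)1 in 2 and MF(ALPHA)2 in 0. Of the other mating type alpha markers, STE3 had a value in 22 libraries, with a median of 5.0 log2 RPM, and SAG1 in 7. HIS3, LEU2 and MET17, deleted in BY4741, were listed in no library, and URA3 in 2.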

How the data were processed

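RNA was sequenced from 25 libraries of 1 time course. Reads were aligned with Bowtie to R64, per the submitters' processing notes; how reads were counted, on which annotation and with or without strand, is unstated in the sources used here. The deposited values are log2 RPM, per the values themselves: 2 raised to them sums to 1000000 in each library. Genes under 15 reads are missing. Within 0.02 reads, 93.6% to 94.4% of values per library were whole reads, so no count model was fitted.

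Windows were compared with limma 3.58.1 (R 4.3.3, trend and robust moderation, no pseudocount), adjusted over all genes tested, two-sided, after tests on simulated data. Motifs were read from the RefSeq R64 genome. Named genes were the 12 largest differences without overlap in each direction, the 5 largest of ribosomal proteins, PHO90 and all PHO and signalling genes, up to 4 per other list, genes listed in 1 window, and the 6 largest calls against 180 to 210 min; TKL2, HSP26, ALD2, RPS14A, RPS9B, SAM1, TPS1, GLC3 and GDB1 were named after their values were seen. The windows, members and 40 lists were chosen with earlier results of these data known. Depth over the course was 450744 to 2271193 reads; single-library error was not separately estimated.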

Additional observations from a re-analysis of the deposited data

How the results depend on the processing

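Against 225 to 255 min, the counts of calls were 0 and 0 under centring, scaling outside ribosomal protein genes, a pseudocount of 5 RPM, a mean of at least 50 RPM, 2 values per window, no trend or robust estimation, all windows in 1 fit, no size limit and a 2-fold limit. Leaving out 1 library gave 0 to 63 higher and 0 to 52 lower, of which 0 to 7 ribosomal proteins; 2 libraries on each side of the boundary gave 62, 87 and 6. The median over all genes was 0.0063, and -0.033 when scaled outside ribosomal protein genes; it was also below 0 with the 50 RPM minimum (-0.0022), 2 libraries on each side (-0.027), and without 225 min (-0.0091) or 300 min (-0.0037). The ribosomal protein median lay between -0.58 and -0.26 under every setting run.

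Against 180 to 210 min (59 higher, 17 lower), centring gave 13 and 27, scaling outside ribosomal proteins 21 higher, the 50 RPM minimum 35 higher, a 2-fold limit 6 and 2, all windows in 1 fit 57 lower, and no trend or robust estimation 0 and 0. The 195 and 210 against 270 and 285 min libraries gave 1 (NCE103) and 0. Leaving out 1 library gave 2 to 129 higher and 1 to 121 lower. The cause was not tested. With 3 libraries per window and a median SE of 0.19, small differences are not resolved. No paired analysis was possible because the labels carry no replicate numbers.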

Other observations

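Several groups described by counts alone moved little in their medians between the windows. The median differences were 0.03 over 66 mitochondrial ribosomal protein genes, -0.06 over 57 amino acid biosynthesis genes, -0.04 over 24 ergosterol genes and -0.02 over 10 histone genes. Proteasome and ubiquitin genes had a median of -0.07 over 34 members, of which 5 (14.7%, against 5.14% of all genes) lay lower with windows apart. Iron uptake genes had 0.10 over 12 members, 3 of them (25%, against 8.23% of all genes) higher with windows apart. Zinc genes had 0.13 over 11. Cell cycle genes lay at -0.14 over 19 G1 and S-phase members and 0.17 over 18 G2/M members.

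Hexose transporters split: the high-affinity transporter gene HXT7 read 6.37, 5.43 and 5.90, and then 6.32, 7.27 and 7.24, a difference of 1.04 with overlapping windows, while HXT3, a low-affinity transporter gene, differed by -0.21. HXT7 has a near-identical copy, so its reads may be shared. After 300 min the order of the groups changed again: relative to 225 to 255 min, ribosome assembly genes had a median of -0.27 at 330 min and 0.91 at 345 min, and trehalose and glycogen genes 0.81 and -0.60.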
